A study of Mus musculus with 18 samples.

Results

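Cytochrome P450 enzymes of the Cyp1, Cyp2 and Cyp3 families were followed in the livers of male CD-1 mice, an outbred stock, that ate bisphenol A, a weakly estrogenic building block of plastics. The genes were taken by name: every gene whose name in the scanner output starts with Cyp1, Cyp2 or Cyp3 followed by a letter, other than the Cyp2b genes. The array carries 40 such genes on 59 probes. Of these, 39 genes on 52 probes were kept, out of 17274 genes kept in all, on the condition that 6 or more of the 18 arrays showed the probe well above background. The gene not kept was Cyp1b1, a mainly extrahepatic dioxin-inducible enzyme, and no level is given for it. By subfamily, the kept genes were 2 of Cyp1a, 3 of Cyp2a, 11 of Cyp2c, 5 of Cyp2d, 5 of Cyp2j, 6 of Cyp3a, and 1 each of Cyp2e, Cyp2f, Cyp2g, Cyp2r, Cyp2s, Cyp2u and Cyp2w.

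RNA from 18 mice was measured, 1 mouse per 1-colour array, with 6 mice in each of 3 groups: control (0 µg/kg/day), low dose (50 µg/kg/day) and high dose (5000 µg/kg/day). All mice ate the same powdered diet with or without the compound for 28 days and were 9 weeks old at death. The doses are averages that the submitters derived from an assumed food intake, not measured intakes. Each level given is a log2 intensity from which that array's 75th percentile was subtracted. Levels are compared for 1 gene between mice, and between genes only to point out probes near saturation. The 75th percentile itself was 230 ± 43.1 intensity units in controls, 295 ± 44.0 at the low dose and 292 ± 34.1 in the high-dose group (SD, n = 6 each), so that control arrays were dimmer. On the log2 scale its mean was 7.83, 8.19 and 8.18. By this subtraction alone, a probe at the scanner's ceiling reads lower in the dosed groups. Arrays lay on 5 slides, all with mice of both doses and 4 with controls, and position on the slide was in no model. In tissue samples, fewer cells of a type and less RNA per cell cannot be told apart. Of the 10 hepatocyte markers listed, 8 were kept, and all 8 were well above background on all arrays.

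P450 enzymes of these families sit in the endoplasmic reticulum of hepatocytes, receive electrons from NADPH through the reductase Por, and oxidise drugs, steroids, fatty acids and food chemicals. Their genes lie in clusters of close relatives on a few chromosomes, and many are controlled by xenobiotic sensors: Cyp1a by the aryl hydrocarbon receptor, Cyp2c genes by the constitutive androstane receptor, and Cyp3a genes by the pregnane X receptor. Several are also expressed unequally in male and female mouse liver under the control of growth hormone. Most of the enzymes are concentrated in hepatocytes around the central vein.

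The promoters of the 2 groups of close relatives that the results turn on are shown, because the levels of these genes ran together from mouse to mouse. Each is the 250 bases before the annotated transcription start, from RefSeq on GRCm38.p6, read 5′ to 3′ on the gene's own strand. Capitals mark AGGTCA, the half-site that many nuclear receptors recognise. The first pair is Cyp2a4 (chr7:26306942-26307191, plus strand) and Cyp2a5 (chr7:26835089-26835338, plus strand), the trio is Cyp3a11 (chr5:145879855-145880104, minus strand), Cyp3a41a (chr5:145720137-145720386, minus strand) and Cyp3a44 (chr5:145805875-145806124, minus strand). Cyp3a41a is the current symbol for the array's Cyp3a41.
Cyp2a4: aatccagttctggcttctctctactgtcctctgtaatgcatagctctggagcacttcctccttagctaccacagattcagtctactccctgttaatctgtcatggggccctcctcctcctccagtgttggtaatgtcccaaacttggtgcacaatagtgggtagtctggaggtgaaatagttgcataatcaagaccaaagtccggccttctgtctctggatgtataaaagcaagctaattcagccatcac
Cyp2a5: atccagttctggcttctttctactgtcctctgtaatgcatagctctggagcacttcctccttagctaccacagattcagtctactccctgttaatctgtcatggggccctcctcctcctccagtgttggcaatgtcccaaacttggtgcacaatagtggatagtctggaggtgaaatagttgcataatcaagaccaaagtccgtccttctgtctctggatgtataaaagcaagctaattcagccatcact
Cyp3a11: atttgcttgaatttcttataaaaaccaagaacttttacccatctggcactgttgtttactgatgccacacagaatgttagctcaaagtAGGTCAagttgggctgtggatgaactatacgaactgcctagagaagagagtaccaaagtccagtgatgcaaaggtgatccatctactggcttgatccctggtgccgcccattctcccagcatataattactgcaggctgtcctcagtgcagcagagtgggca
Cyp3a41a: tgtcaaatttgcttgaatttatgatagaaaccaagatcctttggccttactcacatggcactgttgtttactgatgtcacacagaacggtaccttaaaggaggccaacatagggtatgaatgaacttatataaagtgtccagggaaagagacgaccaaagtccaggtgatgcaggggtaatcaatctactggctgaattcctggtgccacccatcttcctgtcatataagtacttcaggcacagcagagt
Cyp3a44: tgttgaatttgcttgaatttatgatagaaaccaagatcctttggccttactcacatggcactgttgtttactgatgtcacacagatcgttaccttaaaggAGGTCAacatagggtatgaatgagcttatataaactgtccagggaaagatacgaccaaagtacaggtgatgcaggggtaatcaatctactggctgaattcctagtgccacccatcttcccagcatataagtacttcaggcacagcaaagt

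The Cyp2a4 and Cyp2a5 sequences were identical in 97.6% of aligned positions, and Cyp3a41a and Cyp3a44 in 94.4%. Cyp3a16, not printed, matched Cyp3a44 in 92.9% and Cyp3a41a in 91.3%. Cyp3a11 stood further off, with 76.6% identity to Cyp3a16, 72.9% to Cyp3a41a and 72.5% to Cyp3a44. Promoters were found for 33 of the 39 genes, some with more than 1 start. AGGTCA, searched on both strands, occurred in 9 of their 36 promoters, against 14% of 32851 promoters of the same length. The D-box letters TTANGTAA occurred in 1 of 36 (Cyp2c38) against 2.06% of all, and the dioxin-response core TNGCGTG in 0 of 36 against 4.1% of all. These are matches of letters in a short window and describe no binding.

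No member of the 3 families passed the threshold of adjusted p 0.05 (limma, Benjamini-Hochberg over all genes tested) in any comparison. Among all genes, 0.261% passed at the low dose, 0% at the high dose, both against control, and 0.0289% between the doses. At an unadjusted p under 0.05 there were 4 members for low dose against control (1 higher, 3 lower), where 11.6% of all genes reached that level, 5.01% higher and 6.58% lower. There were 7 for high dose against control (2 higher, 5 lower), where 6.95% of all genes did, 3.03% higher and 3.92% lower. For high against low dose there were 4 (2 higher, 2 lower), where 7.66% of all genes did, 3.66% higher and 4.01% lower. No member had groups that did not overlap, against 1.78%, 0.423% and 0.538% of all genes in the same order. The 39 members split almost evenly around no difference, with 17 higher than control at the low dose (45.6% of all genes), 19 at the high dose (49.1% of all genes) and 18 higher at the high than at the low dose (54.7% of all genes). Their median log2 fold changes were -0.05, -0.01 and -0.01, beside -0.02, -0.00 and 0.02 over all genes. The median standard error of a member's log2 fold change was 0.253. The 3 comparisons share groups, so the low-dose and high-dose differences from control are given side by side and not tested against each other except as high against low dose.

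**Figure D1:**
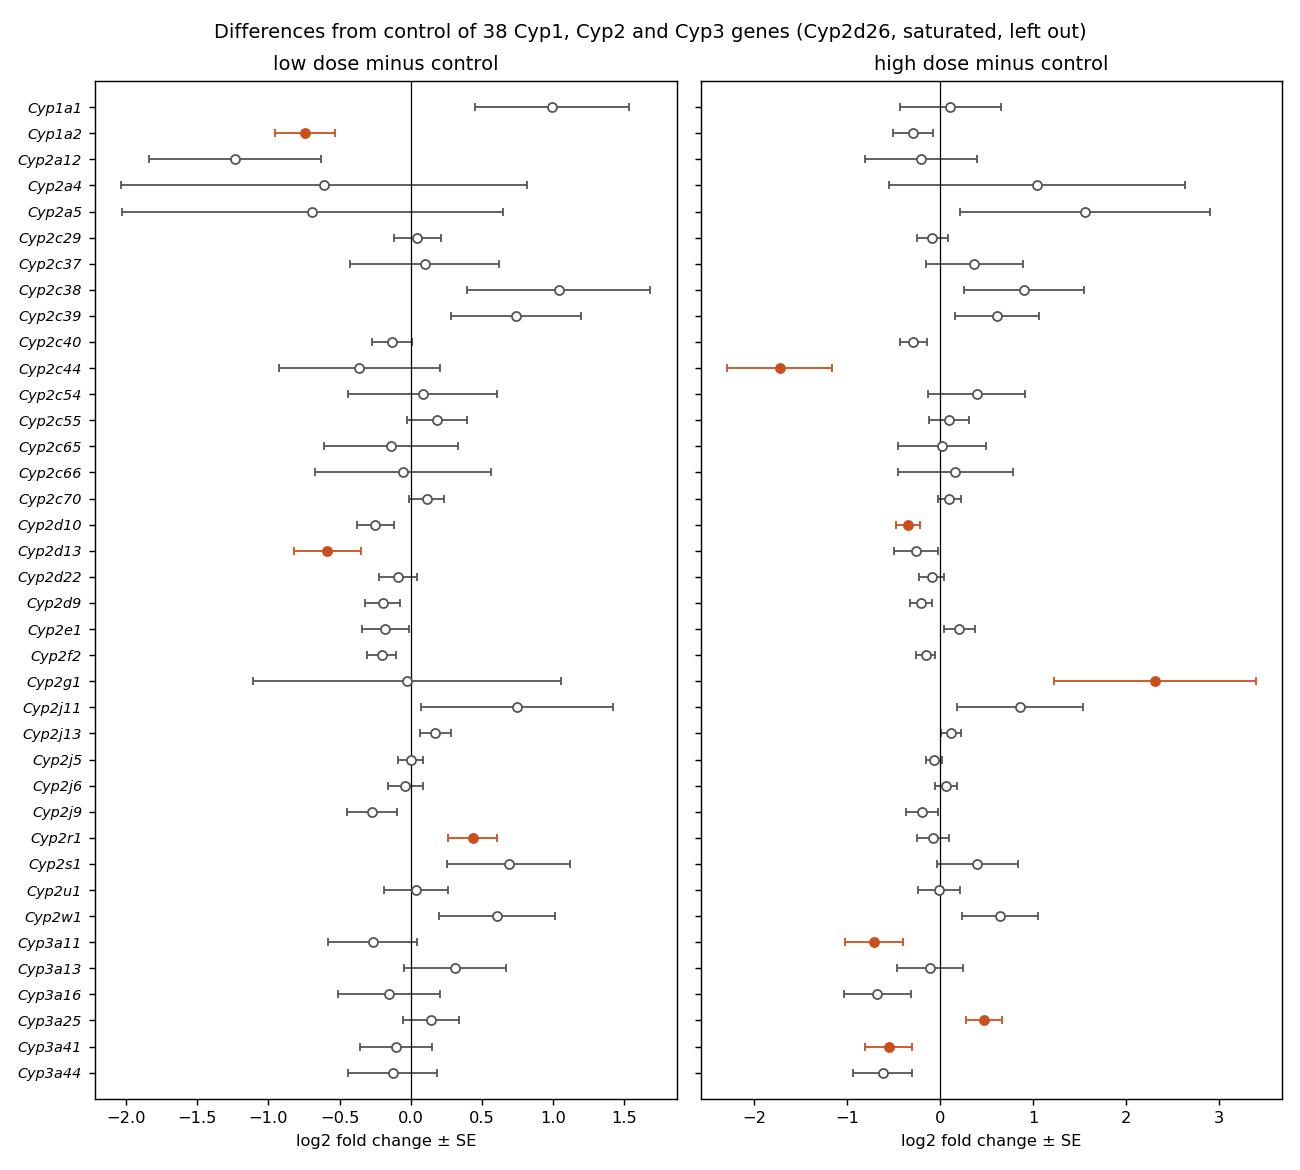
Log2 fold change of 38 genes (vertical axis) at the low dose (left) and high dose (right) against control, with the standard error from limma, on horizontal axes of different range. Filled orange points have an unadjusted p under 0.05; no gene has an adjusted p under 0.05, and Cyp2d26 is left out because its probe was saturated on all arrays.

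Cyp1a2, which oxidises caffeine and aromatic amines in hepatocytes, gave the smallest adjusted p of the families, at the low dose. Its level ran from 3.65 (lowest) through 4.17 (median) to 4.47 (highest) in controls. In low-dose mice the lowest, median and highest levels were 2.79, 3.52 and 3.89, and in high-dose mice 3.42, 3.90 and 4.19. The low-dose mice thus lay mostly below the controls, with the lowest control inside their range, and the high-dose mice overlapped both. The low-dose mean was 1.67-fold lower than control (log2 fold change -0.74 ± 0.21 SE, n = 6 each, limma adjusted p = 0.157), and the second Cyp1a2 probe gave the same sign. The difference was below 0 on 4 of 4 slides, from -1.52 to -0.34. It was -0.43 with array brightness as a covariate and -0.40 with normexp background correction. At the high dose the log2 fold change was -0.29 ± 0.21 SE (adjusted p = 0.814), and high against low dose gave 0.45 ± 0.21 SE (adjusted p = 0.655).

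Cyp1a1, the classical target of the aryl hydrocarbon receptor and nearly silent in unexposed liver, was well above background in only 2 control, 4 low-dose and 4 high-dose mice. Its levels were -6.17 to -4.02 in controls, -5.01 to -1.80 at the low dose and -5.77 to -3.83 at the high dose. Low-dose mice 5 (-1.80) and 3 (-2.80) stood above all other mice, and the other 4 low-dose mice lay within the control range. The log2 fold change was 0.99 ± 0.54 SE at the low dose (limma adjusted p = 0.515) and 0.11 ± 0.54 SE at the high dose (adjusted p = 0.979).

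**Figure D2:**
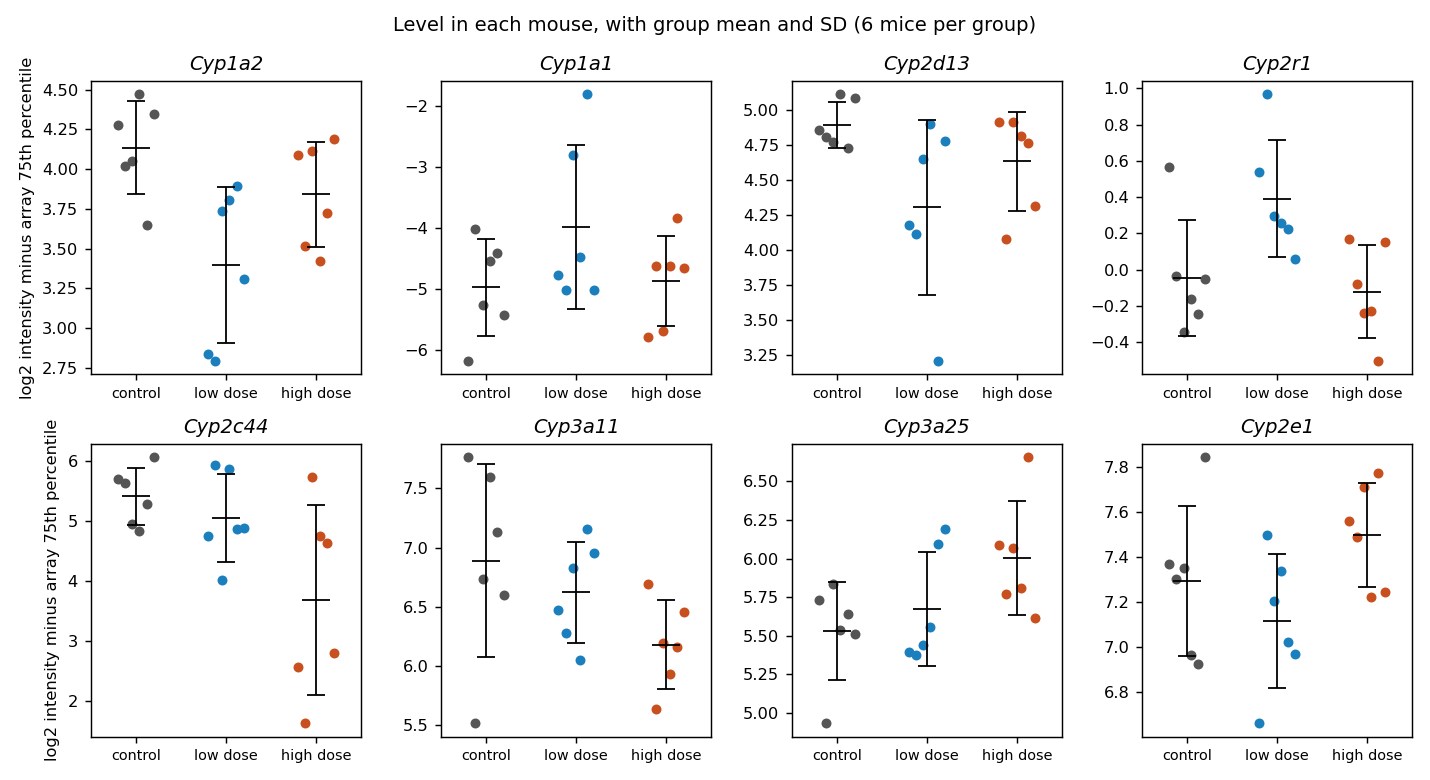
Level of 8 genes in each mouse (vertical axis, log2 intensity minus the array's 75th percentile, a separate scale for each gene) by group, with bars for the mean and SD of 6 mice. The groups overlap for every gene shown; Cyp2c44 is spread from 1.63 to 5.74 at the high dose, and Cyp1a2 is below 3.90 in every low-dose mouse.

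Among the Cyp2a genes, Cyp2a4, a testosterone 15α-hydroxylase, and Cyp2a5, which oxidises coumarin and nicotine, differed widely between mice of the same group. Cyp2a5 was measured by a probe on chromosome 7 (mm8, 26551910 to 26551969). Its lowest, median and highest levels were -0.51, 3.20 and 4.84 in controls, -1.33, 2.28 and 5.09 at the low dose and -1.41, 5.66 and 6.11 in the high-dose group. The range spans 40.7-fold among controls, 86.1-fold at the low dose and 184-fold at the high dose. Control 6, low-dose mice 1, 5 and 6 and high-dose mouse 5 were the low animals, all at or below 0.68, and every other mouse was at or above 2.51.

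The neighbouring genes followed the same animals. Cyp2a4 ranged from -1.08 to 4.31 in controls, from -2.18 to 4.60 at the low dose and from -2.03 to 5.67 at the high dose. Its brightest probe was flagged as an outlier spot on the arrays of high-dose mice 2 and 6, so that n = 4 there. The other 2 kept Cyp2a4 probes, measured in every mouse, placed both of these mice high, at 4.40 and 4.00 on the first and 3.01 and 2.62 on the second. Cyp2g1, best known from the olfactory mucosa, was well above background in 4 control, 3 low-dose and 5 high-dose mice, and its 6 lowest mice were the 5 low animals of Cyp2a5 together with control 4. Cyp2a12, a bile acid 7α-hydroxylase of mouse liver, was 2.07 to 3.08 in low-dose mice 1, 5 and 6 and high-dose mouse 5, and higher in every other mouse, up to 5.90, with control 6 the next lowest. Because the Cyp2a4 and Cyp2a5 transcripts are close relatives, their probes may read both; the probe sequences were not analysed here.

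**Figure D3:**
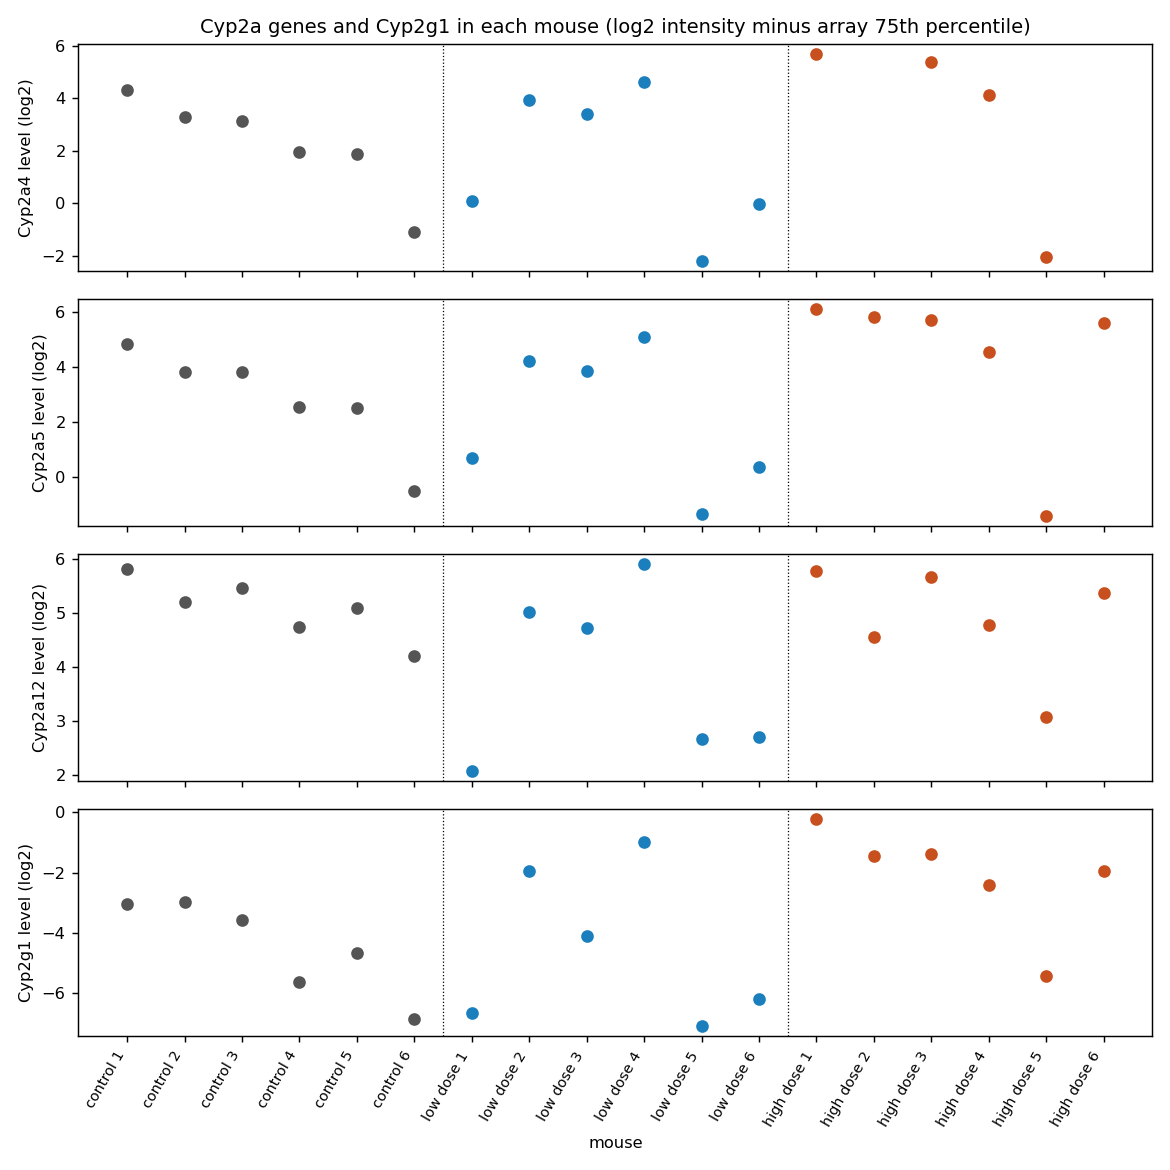
Level of Cyp2a4, Cyp2a5, Cyp2a12 and Cyp2g1 (vertical axes, log2 intensity minus the array's 75th percentile, a separate scale for each gene) in each of the 18 mice (horizontal axis), coloured by group. Low-dose mice 1, 5 and 6 and high-dose mouse 5 are low in each panel; Cyp2a4 has no point for high-dose mice 2 and 6.

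No Cyp2a difference between groups passed the adjusted threshold. For Cyp2a5 the log2 fold change was -0.69 ± 1.34 SE at the low dose (limma adjusted p = 0.903) and 1.56 ± 1.34 SE at the high dose (adjusted p = 0.845), and high against low dose gave 2.25 ± 1.34 SE (adjusted p = 0.769). Without high-dose mouse 5, the high-dose differences of Cyp2a5 were 2.72 from control and 3.41 from the low dose. Each had an unadjusted p under 0.05 (adjusted p = 0.707 and 0.556 by limma), as had 6.41% and 6.27% of all genes in that fit. That mouse was left out because it was the low animal of its group, while the low animals of the other groups were kept. Larger differences and smaller p-values were therefore bound to follow and are no support for a difference. For Cyp2a12 the log2 fold change with all mice was -1.24 ± 0.61 SE at the low dose (adjusted p = 0.460) and -0.21 ± 0.61 SE at the high dose (adjusted p = 0.968). For Cyp2a4 it was -0.61 ± 1.43 SE and 1.04 ± 1.60 SE. Without high-dose mouse 5 the high-dose values were 0.15 for Cyp2a12, of the other sign, and 2.81 for Cyp2a4. That mouse was the lowest of its group for these genes too, so higher values were again bound to follow. All 3 estimates were below 0 at the low dose, also under array median, quantile and normexp scaling and in the deposited value table, with 0 of 3 at an unadjusted p under 0.05. Cyp2g1 had an unadjusted p under 0.05 at the high dose, with lowest, median and highest levels of -6.86, -4.11 and -2.99 in controls, -7.07, -5.14 and -0.99 at the low dose and -5.42, -1.70 and -0.24 in the high-dose group. All high-dose mice but mouse 5 exceeded every control. Its log2 fold change was 2.31 ± 1.09 SE (adjusted p = 0.713) against control and 2.34 ± 1.09 SE (adjusted p = 0.636) against the low dose. With normexp background correction these were 0.52 and 0.95, and the difference from control was 0.97 to 4.71 on the 4 slides with controls. A second Cyp2g1 probe, not kept, was well above background on 0 arrays, with levels of -7.07 to -6.27 over all mice. In high-dose mouse 1 it read -6.63, where the kept probe read -0.24. The second probe thus did not repeat the difference, and whether it detects the transcript was not tested.

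Among the 11 Cyp2c genes, which include epoxygenases of arachidonic acid and steroid hydroxylases, Cyp2c44 showed the lowest estimate at the high dose. Cyp2c44, now named Cyp2c23, is an arachidonic acid epoxygenase, and its probe lies on chromosome 19 (mm8, 44058356 to 44058415). Its lowest, median and highest levels were 4.84, 5.46 and 6.07 in controls, 4.01, 4.88 and 5.94 at the low dose and 1.63, 3.71 and 5.74 in the high-dose group. High-dose mice 1, 2 and 6 were far below all other mice, at 2.56, 1.63 and 2.80, whereas high-dose mouse 3 lay within the control range. The high-dose mean was 3.31-fold lower than control (log2 fold change -1.73 ± 0.57 SE, limma adjusted p = 0.665) and differed from the low dose by -1.37 ± 0.57 SE (adjusted p = 0.587). On single slides the difference from control ran from -4.02 to 0.85, and leaving out high-dose mouse 2 gave -1.32. At the low dose it was -0.36 ± 0.57 SE (adjusted p = 0.871).

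Cyp2c37, Cyp2c38, Cyp2c39 and Cyp2c54, neighbours of each other but not of Cyp2c44, varied widely from mouse to mouse. High-dose mouse 2 had the lowest level of its group for each of them. It was the lowest of all mice for Cyp2c37 and Cyp2c54 only: for Cyp2c38, at -2.29, it lay above control 4 (-3.47) and low-dose mouse 4 (-3.29), and for Cyp2c39, at 0.46, above control 4 (0.42). Cyp2c37 was -0.20 in that mouse and 2.88 to 3.60 in the other high-dose mice, against 1.34 to 3.65 in controls. Cyp2c54 was -1.55 there and 0.97 to 1.79 in the others, against -0.57 to 2.05 in controls. The log2 fold changes at the high dose were 0.37 ± 0.53 SE for Cyp2c37, 0.90 ± 0.64 SE for Cyp2c38, 0.61 ± 0.46 SE for Cyp2c39, known to oxidise retinoic acid, and 0.39 ± 0.52 SE for Cyp2c54, each with an adjusted p of at least 0.813 by limma. Without high-dose mouse 2 they were 0.93, 1.21, 0.96 and 0.88, with none past the adjusted threshold. That mouse was left out because it was the lowest of its group for all 4 genes. Higher values were therefore bound to follow and are no support for a difference. At the low dose the same 4 genes gave 0.10, 1.04, 0.74 and 0.09.

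Cyp2c29, a hepatic target of the constitutive androstane receptor, was 6.67 ± 0.22 in controls, 6.72 ± 0.24 at the low dose and 6.59 ± 0.40 in the high-dose group (SD, n = 6 each). Cyp2c40, an arachidonic acid hydroxylase, was 7.19 ± 0.16, 7.06 ± 0.22 and 6.90 ± 0.32. Its high-dose difference from control was below 0 on 4 of 4 slides, and its second probe gave -0.37 with an unadjusted p under 0.05. Cyp2c70, the mouse enzyme that makes muricholic acids, was 7.54 ± 0.31, 7.66 ± 0.16 and 7.64 ± 0.10, with its probe saturated in 3 low-dose and 2 high-dose mice, so that a difference there may be understated. The log2 fold changes of these 3 genes from control lay between -0.29 and 0.11, each from the gene's brightest probe. Cyp2c55, Cyp2c65 and Cyp2c66, known from colon and intestine, were dim, and the last 2 were well above background in 2 to 4 mice of each group. Their log2 fold changes from control lay between -0.14 and 0.19.

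Of the 5 Cyp2d genes, Cyp2d26 was saturated on all 18 arrays and allows no fold change, although it was counted above with an unadjusted p under 0.05 at both doses. The other 4 had median log2 fold changes of -0.22 at the low and -0.23 at the high dose, but the direction depended on scaling. Of these 4, 4 were below control at the low dose, 3 after quantile normalisation and in the deposited value table, and 1 after normexp correction. At the high dose the counts were 4, 3, 3 and 3. Cyp2d13 had the largest low-dose difference of these 4, with lowest, median and highest levels of 4.73, 4.83 and 5.11 in controls, 3.21, 4.41 and 4.90 at the low dose and 4.08, 4.79 and 4.92 in the high-dose group. Low-dose mouse 5, at 3.21, was the lowest animal, and 4 of the 6 low-dose mice lay below all controls. The log2 fold change was -0.59 ± 0.24 SE (limma adjusted p = 0.324), or -0.37 without low-dose mouse 5 and -0.33 with normexp correction.

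Cyp2d10 was 7.80, 8.05 and 8.26 (lowest, median, highest) in controls, 7.60, 7.72 and 8.09 at the low dose and 7.22, 7.76 and 7.97 in the high-dose group. Its groups overlapped, and the probe was saturated in 2 control, 4 low-dose and 4 high-dose mice. The log2 fold change at the high dose was -0.35 ± 0.13 SE (limma adjusted p = 0.686), and -0.11 both after quantile normalisation and with array brightness as a covariate. Since more dosed than control mice were saturated, this value is uncertain. A second probe, saturated on no array, gave -0.32 with an unadjusted p under 0.05. Cyp2d9, the male-biased testosterone 16α-hydroxylase, differed by -0.20 ± 0.12 SE at the low and -0.21 ± 0.12 SE at the high dose. Cyp2d22, a relative of the human debrisoquine hydroxylase, differed by -0.09 at both doses. Its other kept probes gave -0.17 and -0.06 at the low dose, and 0.27 and 0.03, of the other sign, at the high dose.

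Cyp2e1, which oxidises ethanol and acetaminophen around the central vein, was 6.93, 7.33 and 7.84 (lowest, median, highest) in controls, 6.66, 7.11 and 7.50 in low-dose mice and 7.22, 7.52 and 7.77 in high-dose mice. The dosed groups overlapped between 7.22 and 7.50. High against low dose gave 0.38 ± 0.16 SE (limma adjusted p = 0.602), above 0 on 5 of 5 slides, and 0.13 with normexp correction. The probe was saturated in 4 high-dose mice and in no other, so the high-dose level may be understated. Cyp2f2, a naphthalene-oxidising enzyme of lung and periportal liver, differed by -0.20 ± 0.10 SE at the low and -0.16 ± 0.10 SE at the high dose, with its probe saturated in 2 control, 5 low-dose and 5 high-dose mice.

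Cyp2r1, the main vitamin D 25-hydroxylase of liver, was the member with the smallest p for high against low dose. Its lowest, median and highest levels were -0.34, -0.11 and 0.56 in controls, 0.06, 0.28 and 0.97 at the low dose and -0.50, -0.15 and 0.17 in the high-dose group. The 5 controls other than mouse 1 lay below all low-dose mice, and 2 high-dose mice reached into the low-dose range. High against low dose gave -0.51 ± 0.17 SE (limma adjusted p = 0.436), below 0 on 5 of 5 slides, from -0.80 to -0.23. Low dose against control gave 0.44 ± 0.17 SE (adjusted p = 0.305), above 0 on 4 of 4 slides, from 0.30 to 0.71.

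The Cyp2j genes, which oxidise arachidonic and linoleic acid, had no unadjusted p under 0.05 against control. Cyp2j5 was 6.21 ± 0.11 in controls, 6.21 ± 0.09 at the low dose and 6.14 ± 0.17 in the high-dose group (SD, n = 6 each). Cyp2j6, Cyp2j9 and Cyp2j13 had log2 fold changes from control of -0.27 to 0.17. Cyp2j11 was dim, being well above background in 3 control, 5 low-dose and 5 high-dose mice, and differed by 0.75 ± 0.68 SE and 0.86 ± 0.68 SE. Cyp2s1, an extrahepatic retinoid-oxidising enzyme, differed by 0.69 ± 0.43 SE at the low and 0.40 ± 0.43 SE at the high dose. Cyp2w1, first known from tumours and fetal gut, differed by 0.61 ± 0.41 SE and 0.64 ± 0.41 SE, and Cyp2u1, a fatty acid hydroxylase, by 0.04 ± 0.22 SE and -0.01 ± 0.22 SE. None of these passed an unadjusted p of 0.05.

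Of the 6 Cyp3a genes, which oxidise steroids and many drugs, 5 were below control at the high dose and Cyp3a25 was above it. Cyp3a11, the main pregnane X receptor target of adult male liver, ran from 5.52 through 6.93 to 7.76 (lowest, median, highest) in controls. It ran from 6.05 through 6.65 to 7.16 at the low dose and from 5.64 through 6.18 to 6.70 at the high dose. All high-dose mice lay below 4 of the 6 controls, and control 2, at 5.52, was the lowest of all mice. The high-dose mean was 1.64-fold lower than control (log2 fold change -0.71 ± 0.31 SE, limma adjusted p = 0.699), and the low-dose value was -0.27 ± 0.31 SE (adjusted p = 0.809). With array brightness as a covariate the high-dose value was -0.15. It ran from -0.97 to 0.12 on the 4 slides with controls.

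The close relatives gave similar estimates and cannot be counted as separate evidence. Cyp3a41 was 6.52, 7.73 and 8.38 (lowest, median, highest) in controls, 7.18, 7.66 and 7.84 at the low dose and 6.63, 7.06 and 7.62 in the high-dose group. The control range held all high-dose mice. Its high-dose log2 fold change was -0.55 ± 0.25 SE (limma adjusted p = 0.708), or -0.10 with array brightness as a covariate. Cyp3a16, a fetal and female-biased form, gave -0.68 ± 0.36 SE and Cyp3a44, also female-biased, -0.62 ± 0.32 SE. A second, dim Cyp3a44 probe had the other sign, with 2.25 at the low and 0.86 at the high dose. It was well above background in 1 control, 4 low-dose and 4 high-dose mice. All 4 genes were also below control at the high dose under array median, quantile and normexp scaling and in the deposited value table. At the low dose they gave -0.27 to -0.11, and normexp correction, like array brightness as a covariate, put all 4 above control.

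Cyp3a25, a liver and intestinal form, was 4.93, 5.59 and 5.83 (lowest, median, highest) in controls, 5.37, 5.50 and 6.19 at the low dose and 5.61, 5.94 and 6.66 in the high-dose group. The high-dose group overlapped the upper controls. Its log2 fold change was 0.47 ± 0.20 SE (limma adjusted p = 0.693), from 0.38 to 0.84 on the 4 slides with controls, and 0.31 as the mean of its 2 probes. Array brightness as a covariate gave 0.77. Cyp3a13, which lies several megabases from the other Cyp3a genes, gave 0.31 ± 0.36 SE at the low and -0.11 ± 0.36 SE at the high dose.

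The families varied more between mice of a group than most genes did. For the 32 members well above background on all arrays the median within-group SD was 0.383 on the log2 scale, against 0.251 over the 13810 genes that met the same condition. Of these members, 8 (25%) exceeded the 95th percentile of those genes, which was 0.674, and 3 exceeded the 99th percentile, 1.05. The 3 were Cyp2a5 (2.48), Cyp2c38 (1.19) and Cyp2a12 (1.12). At the other end stood Cyp2j5 (0.13), Cyp2f2 (0.16) and Cyp2j13 (0.17), of which Cyp2f2 was saturated on 12 arrays. This is a description of the members, with no test of the list.

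**Figure D4:**
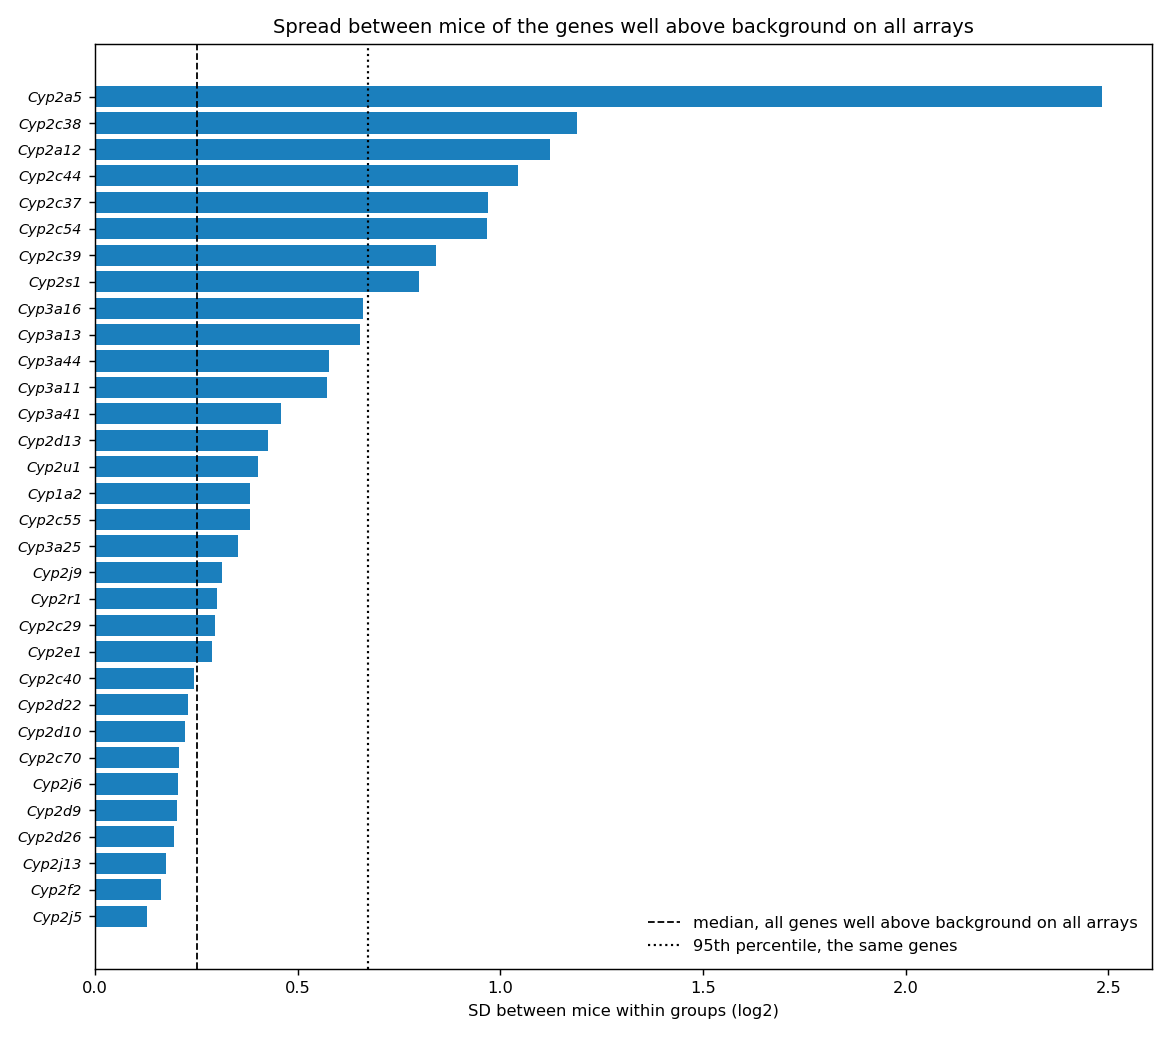
SD between mice within groups on the log2 scale (horizontal axis, bars from 0) for the 32 genes well above background on all arrays (vertical axis). The dashed line at 0.251 is the median and the dotted line at 0.674 the 95th percentile of all 13810 such genes; 8 bars pass the dotted line, and Cyp2d26 is saturated throughout.

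Mouse-to-mouse differences were shared between neighbouring genes. After each group's mean was subtracted, 496 pairs of the 32 genes were correlated over 18 mice, with 100000 permutations of mice within groups and Benjamini-Hochberg adjustment over the pairs. The median Pearson r was 0.49 over the 56 pairs within 1 Mb of each other and 0.11 over the other 440 pairs. Pairs share mice, arrays and, for close relatives, perhaps transcripts, so they are not independent. In 12 pairs the adjusted permutation p for r was under 0.05, all positive, and 11 of them lay within 1 Mb.

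Cyp3a11, Cyp3a16, Cyp3a41 and Cyp3a44 formed the tightest set. As with Cyp2a4 and Cyp2a5, their probes may read each other's transcripts, and the probe sequences were not analysed here. Shared probe signal and genes that vary together cannot be told apart. Cyp3a16 and Cyp3a44 had r = 0.98 and rho = 0.97 (permutation p = 1e-05, the smallest that these permutations can give, adjusted p = 0.000551 for r and 0.000827 for rho). Without the 2 mice farthest from the median, r was 0.96, and with slide as a further term it was 0.99. Cyp3a11 and Cyp3a41 had r = 0.94 and rho = 0.88 (permutation p = 1e-05 and 3e-05, adjusted 0.000551 and 0.00186), and r = 0.87 without the 2 farthest mice. Cyp3a11 and the more distant Cyp3a13 had r = 0.11 and rho = 0.15 (permutation p = 0.75 and 0.59, adjusted 0.959 and 0.931), or 0.17 without the 2 farthest mice. Slides held at most 4 mice, too few for a correlation within a slide.

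Cyp2c37 and Cyp2c54 had r = 0.97 and rho = 0.95 (permutation p = 1e-05 for both, adjusted 0.000551 and 0.000827), and r = 0.94 without the 2 farthest mice. Cyp2c38 and Cyp2c39 had r = 0.92 and rho = 0.81 (permutation p = 1e-05 and 0.00017, adjusted 0.000551 and 0.00843), with r = 0.91 without the 2 farthest mice. Cyp2d9 and Cyp2d10 had r = 0.88 and rho = 0.89 (permutation p = 1e-05 and 3e-05, adjusted 0.000551 and 0.00186), with r = 0.86 without the 2 farthest mice. The Cyp2d10 probe was saturated on 10 arrays and the Cyp2d9 probe on 1, and how far this shaped their r is not given here. Cyp2d26, saturated on all arrays, was also among the genes correlated. Cyp2a5 and Cyp2a12 were among the 12 pairs, but since Cyp2a12 fell into separate ranges no pooled r is given.

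**Figure D5:**
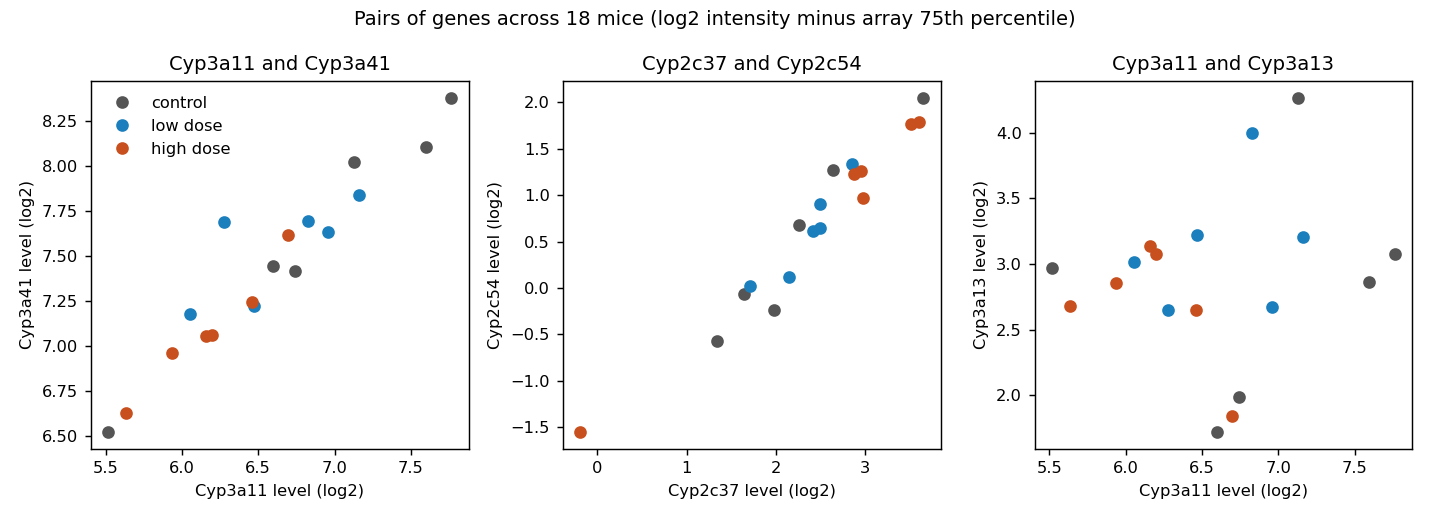
Levels of pairs of genes in 18 mice (both axes in log2 intensity minus the array's 75th percentile), coloured by group. Cyp3a11 with Cyp3a41 and Cyp2c37 with Cyp2c54 lie along lines in all groups; Cyp3a11 with Cyp3a13 does not.

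The partners and regulators of these enzymes gave no call past the adjusted threshold either. Of 17 genes for electron supply and heme synthesis, 16 were kept, and 3, 0 and 4 of them had an unadjusted p under 0.05 for the low dose, the high dose and high against low dose. The shares of all genes at that level were 11.6%, 6.95% and 7.66%, here and for the lists that follow. Por, the reductase that feeds electrons to every microsomal P450, gave 0.45 ± 0.19 SE for high against low dose (limma adjusted p = 0.593). Alas1, the rate-limiting enzyme of heme synthesis, was 2.44, 3.38 and 3.80 (lowest, median, highest) in controls, 2.39, 4.29 and 4.94 at the low dose and 1.41, 2.69 and 3.98 in the high-dose group. The groups overlapped widely, and high against low dose gave -1.28 ± 0.48 SE (adjusted p = 0.504). Cpox and Ppox, later enzymes of the same path, gave -0.43 at the low dose and -0.45 for high against low dose.

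Of 13 genes of the aryl hydrocarbon receptor pathway, 8 were kept, with 1, 1 and 2 at an unadjusted p under 0.05 in the same order. Tiparp, a receptor target that represses it, gave 0.48 ± 0.18 SE at the low dose (limma adjusted p = 0.283), and Nqo1, a quinone reductase, 0.61 ± 0.23 SE for high against low dose (adjusted p = 0.518). Hsp90ab1, a chaperone of the receptor, gave -0.34 at the high dose. The receptor Ahr itself ran from 0.74 to 1.91 in controls, 0.84 to 1.74 at the low dose and 0.70 to 1.85 at the high dose.

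Of 26 nuclear receptors and hepatic factors, 25 were kept, with 3, 1 and 3 at an unadjusted p under 0.05. Nr1i3, the constitutive androstane receptor, was 2.23, 2.53 and 2.79 (lowest, median, highest) in controls, 1.01, 1.76 and 2.18 at the low dose and 1.00, 2.38 and 2.93 in the high-dose group. All low-dose mice lay below all controls, where 1.78% of all genes had groups that did not overlap. The log2 fold change was -0.78 ± 0.25 SE (limma adjusted p = 0.228). Nr1h4, the bile acid receptor, gave -0.36 ± 0.10 SE at the low dose (adjusted p = 0.157) and 0.45 ± 0.10 SE for high against low dose (adjusted p = 0.166). All high-dose mice, from 4.24 up, lay above all low-dose mice, up to 4.19, where 0.538% of all genes did not overlap. Dbp, a clock-driven activator of Cyp2a genes, was 0.11, 0.60 and 2.03 in controls, -0.26, 0.32 and 2.73 at the low dose and 2.06, 2.66 and 2.82 in the high-dose group. All high-dose mice lay above all controls, where 0.423% of all genes did not overlap, and the log2 fold change was 1.81 ± 0.45 SE (adjusted p = 0.655). Rora, a clock-linked receptor, gave -0.26 for high against low dose. Nr1i2, the pregnane X receptor, ran from 1.98 to 3.29 in controls and from 1.67 to 3.01 at the high dose.

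Of 29 other P450 genes, 26 were kept, with 4, 2 and 3 at an unadjusted p under 0.05. Cyp7a1, the rate-limiting enzyme of bile acid synthesis, gave -1.94 ± 0.73 SE at the low dose (limma adjusted p = 0.287) and 0.07 ± 0.73 SE at the high dose. Cyp39a1, an oxysterol hydroxylase, gave -1.09 ± 0.34 SE at the high dose (adjusted p = 0.655). Cyp4a10, a fatty acid hydroxylase, gave -0.54 at the low dose and Cyp51, of sterol synthesis, -0.60 for high against low dose.

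Zonation and sex bias, both known to pattern these enzymes, were read from lists of other genes and, for sex bias, also from lists of members. Of 16 pericentral genes, all kept, 4 had an unadjusted p under 0.05 at the low dose and 4 in the high-dose group, each of them lower. Among them at both doses were Ephx1 (-0.78 and -0.90), an epoxide hydrolase, and Gsta3 (-0.39 and -0.34), a glutathione transferase. Avpr1a, a vasopressin receptor, was among them at the low dose only (-0.55) and Gstm3, another glutathione transferase, at the high dose only (-0.43), and their values at the other dose were -0.31 and -0.25. Of the 16, 5 were higher and 11 lower at the low dose, and 10 were higher and 6 lower at the high dose. The list medians were -0.09 and 0.07, beside -0.02 and -0.00 over all genes. Of 18 periportal genes, 15 were kept, with 2 at each dose and medians of -0.13 and -0.07. The 2 were G6pc (0.71) and Arg1 (-0.23) at the low dose, and Arg1 (-0.23) and Agxt2l1 (-1.03) at the high dose. Of the 22 other sex-biased genes, 13 were kept, with 2 and 3, all lower: the male-biased Mup1 (-0.39 and -0.42), Mup3 (-0.38 and -0.40) and, at the high dose, Elovl3 (-0.87). Control means of Mup1, Mup3, Gsta3 and Gstm3 were 8.44, 8.52, 7.93 and 7.86, beside 8.02 for Cyp2d26, saturated on all arrays. Saturation of these listed probes is not given here, and its part in their values was not tested. Of the 9 names listed as female-biased P450 genes, 7 are members, with medians of -0.13 at the low and -0.29 at the high dose. They were 1 higher and 6 lower at the low dose, and 3 higher and 4 lower at the high dose. The close relatives Cyp3a16, Cyp3a41 and Cyp3a44 were among the lower. At the high dose Cyp2g1 (2.31) and Cyp3a41 (-0.55), of opposite sign, had an unadjusted p under 0.05. The 2 listed as male-biased, Cyp2d9 and Cyp2u1, had medians of -0.08 and -0.11.

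Markers of other cell types were read from the same arrays, and their part in the results was not tested. Hepatocyte markers had medians of -0.15 at the low and -0.25 at the high dose, with 2 of 8 at an unadjusted p under 0.05 at each, both lower (Apoa1 and Fgb). Apoa1 and Fgb had control means of 8.12 and 8.11, beside 8.02 for Cyp2d26, saturated on all arrays. Saturation of the marker probes is not given here, and its part in these values was not tested. Medians at the low and high dose were 0.18 and 0.33 for 9 kept Kupffer cell markers and -0.06 and -0.06 for 9 of sinusoidal endothelium. They were 0.49 and 0.27 for 4 of cholangiocytes, 0.16 and 0.35 for 8 of B cells, and -0.23 and 0.10 for 8 of T and NK cells. At the high dose 3 of the 8 B cell markers had an unadjusted p under 0.05, all higher: Ms4a1 (0.78), Igh-6 (0.63) and Cd74 (0.74). At each dose 7 of the 8 were higher. Blnk went the other way, with -0.60 at the low dose, at an unadjusted p under 0.05, and -0.24 at the high dose. Krt19, of the cholangiocyte list, was higher at the low dose (0.79) with an unadjusted p under 0.05. For 5 neutrophil markers they were 0.51 and 0.67, for 4 erythroid markers -0.17 and -0.12, and for 10 of stellate cells -0.01 and -0.04. In the stellate list Hand2 alone passed the adjusted threshold (-0.91 ± 0.17 SE at the low dose, limma adjusted p = 0.0424), and no gene passed with array brightness as a covariate. Of 7 genes of lung, kidney or intestine, 3 were kept, with medians of 0.04 at the low and -0.36 at the high dose, and Scgb1a1, a lung airway protein, had an unadjusted p under 0.05 at the high dose (log2 fold change 1.29).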

How the data were processed

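Scanner files deposited by the authors, 1 per mouse, hold Cy3 spot intensity after background subtraction in Agilent Feature Extraction 9.5, per the submitters' processing notes, with the raw intensity and background beside it. A deposited value table holds log2 intensity for 22514 probes and served as an alternative; its normalisation is not given in the sources used here. Control and outlier spots were dropped, log2 intensity was centred on each array's 75th percentile, and each gene was read from its brightest probe. A probe was kept when well above background on at least 6 arrays. A probe saturated on every array was given no fold change. Groups were compared with limma 3.58.1 (R 4.3.3), 1 model for all 18 arrays and no term but group, p-values 2-sided and adjusted over all genes. Members and lists were chosen with earlier results of these data known; the pairs of genes were correlated after the values were seen. Members with an unadjusted p under 0.05 and a fixed list of members are given in full, and up to 4 genes of each pathway list. Mice are separate animals, and their number limits the precision. Coordinates of probes are on mm8, and those of promoters on GRCm38.p6. Alternatives were other scalings, backgrounds, filters, probe rules and fits, and leaving out each mouse.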

Additional observations from a re-analysis of the deposited data

Results flagged for a closer look

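In 117 groups of 6 mice (39 genes and 3 groups), 17 had a highest or lowest mouse far from its nearest neighbour. For independent groups chance gives about 1 in 20. These genes share mice and many run together, so the 17 cannot be read as an excess over that share. The share over all genes is not given here. High-dose mouse 2 accounted for 7 of the 17. It was the lowest high-dose mouse for Cyp2c29 (5.81), Cyp2c37 (-0.20), Cyp2c39 (0.46), Cyp2c40 (6.29), Cyp2c54 (-1.55) and Cyp2d22 (4.35), and the highest for Cyp2w1 (-2.70). The other low mice were high-dose mouse 5 for Cyp2a5 (-1.41), low-dose mouse 4 for Cyp2c38 (-3.29), high-dose mouse 4 for the saturated Cyp2d26 (7.41), low-dose mouse 1 for Cyp2d9 (7.49), control 1 for Cyp2j5 (5.98) and control 2 for Cyp3a25 (4.93). The other high mice were low-dose mouse 2 for Cyp2c66 (-3.04), high-dose mouse 6 for Cyp2j5 (6.47), and control 1 for Cyp2j9 (2.61) and Cyp2r1 (0.56). All values are log2 levels relative to the array's 75th percentile.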

How the results depend on the processing

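No member passed the adjusted threshold under any of the 35 other settings, of which 18 leave out 1 mouse, and the smallest adjusted p of a member over all of them was 0.109 (limma). Of the 15 member differences with an unadjusted p under 0.05, the other settings gave 499 values, of which 409 kept an unadjusted p under 0.05 and 1, for the saturated Cyp2d26, had another sign. These 15 were picked for their p in the same mice, so the kept share is no separate support. For high dose against control, 7 members had such a p (6.95% of all genes). There were 9 with the array median (6.23%), 1 with normexp (0.816%) and 2 with array brightness as a covariate (4.08%). For low dose against control the counts were 4 (11.6%), 4 (8.60%), 3 (7.87%) and 2 (6.87%). The median log2 fold change of the members without 1 mouse ran from -0.11 to -0.02 for low dose against control, from -0.06 to 0.07 for high dose against control and from -0.06 to 0.03 for high against low dose. With normexp correction it was 0.22, -0.03 and -0.16. The count over all genes, against which the members were read, moved more. For low dose against control it was 45, and 8 with the array median, 16 with normexp, 91 with genes well above background on all arrays, 14 with no filter, 15 with the mean of probes, 82 with only the groups compared, 85 with trend and robust eBayes, 148 with array weights, 2 with slide as a block and 0 with array brightness as a covariate. For high against low dose it was 5, and 8 with genes well above background on all arrays, 1 with no filter, 11 with every probe alone, 0 with only the groups compared, 15 with array weights and 0 with slide as a block. Without 1 mouse the counts ran from 2 to 74 and from 1 to 10, and for high dose against control they were 0 throughout; the cause of these moves was not tested.

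By the rule that every same-numbered pair correlate above 0.1, mouse numbers were not taken as pairing: 8 of 18 pairs did (range of r of deviations -0.31 to 0.35). As a hint from the data, 10 of 18 mice correlated best with a mouse of their own number. With the replicate block, 5 genes passed for low dose against control and 0 for high against low dose, none of them a member. Saturated spots of 7 members, and spots of 7 others that on some arrays were dim or dropped, limit what their probes can show.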
